A study of Mus musculus with 80 samples.

Results

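Forkhead transcription factors are DNA-binding proteins that share the forkhead domain, a winged helix that contacts DNA, and their genes are named *Fox* with a letter for the subclass. Members were taken as every symbol of the deposited table made of *Fox*, a letter from a to s and a number, which gave 42 genes of 25899. The symbols *Foxf1a*, *Foxred1* and *Foxred2* lie outside this rule and were not counted. Of the 42 members, 36 had at least 1 read in the 30 libraries compared, and 6 had none (*Foxa2*, *Foxb1*, *Foxb2*, *Foxe1*, *Foxe3* and *Foxi3*).

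The libraries come from muscle stem cells (MuSCs) of extraocular muscle (EOM), which moves the eye, and of *Tibialis anterior* (TA), a limb muscle. Both muscles were taken from the same 10 male Tg:Pax7-nGFP mice (C57BL/6;DBA2 F1/JRj, 7 weeks old in Experiment 2 and 7.6 weeks in Experiment 1), in which a *Pax7* transgene marks MuSC nuclei with GFP for sorting. Pre-graft libraries hold 500 sorted cells each, and post-graft libraries hold GFP+ cells sorted again at day 21 by the labels (a later day is given in the study's results) from TA muscles of Rag2-/-;γC-/- recipients (C57BL/6J), which lack lymphocytes and had been injured with cardiotoxin. All 4 groups carry the transgene, and EOM and TA cells of 1 donor went into opposite legs of 1 recipient. Of 40 libraries, 30 passed the quality criteria of the study: 8 pre-graft EOM, 8 pre-graft TA, 7 post-graft EOM and 7 post-graft TA. Of these, 7 belong to Experiment 1 and 23 to Experiment 2.

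FoxO proteins act downstream of insulin and growth factor signalling: the kinase Akt phosphorylates them and keeps them out of the nucleus, and in resting MuSCs they are known for a part in quiescence. FoxP proteins are mostly repressors that bind DNA as dimers. FoxC proteins are known from the mesoderm and neural crest of the embryo, from blood vessels and from the region around the eye. Levels are given as log2 RPM as deposited. The total to which the reads of a library were scaled is not given in the sources used here and is not the sum of the reads recovered on genes, so an RPM is no share of those reads. Genes with no read sit at a floor that lies between -1.67 and 0.48 depending on the library.

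The libraries held 963432 to 4169357 recovered reads on genes. Post-graft libraries were made from fewer cells, a median of 35 for EOM and 26 for TA, and mitochondrial genes took more of their reads (median 33% in EOM and 25.3% in TA, against 3.56% and 10.7% before grafting). MuSC markers were read in every group, and all 8 of them (*Pax7*, *Myf5*, *Cdh15*, *Itga7*, *Calcr*, *Vcam1*, *Chodl* and *Sdc4*) fell in both muscles on grafting, from a median summed level of 15900 to 4170 RPM in EOM and from 16700 to 3140 RPM in TA. After each library was centred on its median over genes, 7 of them were still lower in TA and 2 in EOM. With the count models edgeR and DESeq2, 5 and 7 of the 8 passed the thresholds used below in TA. In EOM 0 and 1 passed. At the same time 7 of 8 endothelial markers rose in each muscle, from 223 to 2880 RPM in EOM and from 363 to 4080 RPM in TA. Fewer cells of a type and less RNA per cell cannot be told apart in such bulk samples. The part that these shifts have in the results on *Fox* genes was not tested, and their values are given beside those results.

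A small set of members carried nearly all reads of the family. The median library held 17 members with reads (12 to 19), and 7 members were read in all 30 libraries: *Foxo1*, *Foxo4*, *Foxp1*, *Foxn2*, *Foxn3*, *Foxj2* and *Foxj3*. *Foxo1*, *Foxo3*, *Foxp1*, *Foxp2*, *Foxn2* and *Foxn3* together took 80.9% of all *Fox* reads. The family as a whole took a median of 0.0722% of the reads on genes (0.0154% to 0.116%). Another 22 members had reads in 15 or fewer libraries, and except for *Foxm1*, *Foxo6* and *Foxs1* none of them exceeded 19 reads in any library. In the map of members with reads in at least 3 libraries, the upper rows are filled in every group and the lower rows hold scattered single libraries.

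**Figure D1:**
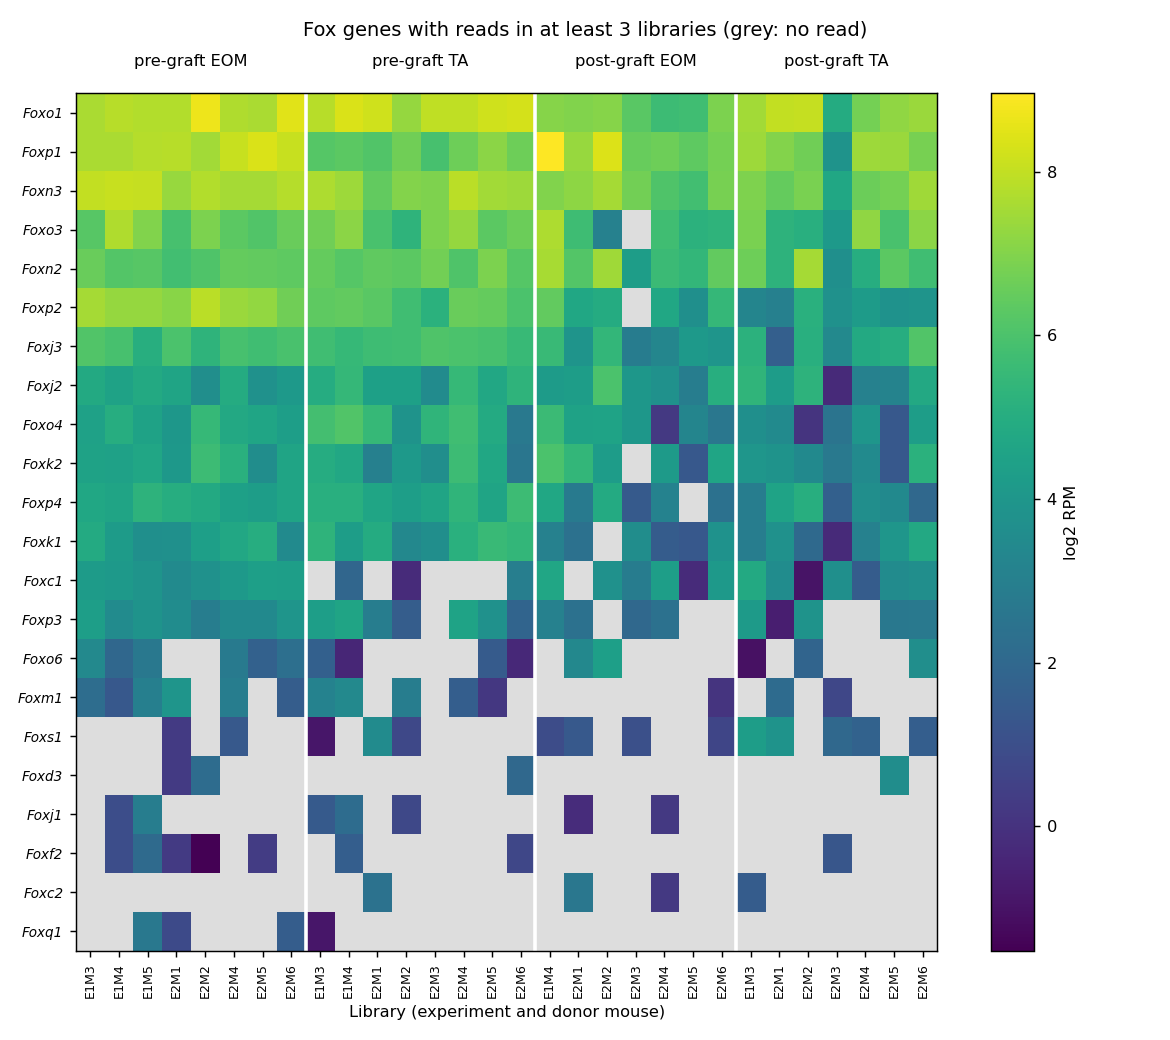
Log2 RPM of the 22 *Fox* genes with reads in at least 3 libraries (rows, ordered by total reads) in the 30 libraries compared (columns, named by experiment and donor mouse, grouped by muscle and stage). Grey marks a library without a read of that gene. *Foxo1*, *Foxp1* and *Foxn3* are bright in all groups, and *Foxc1* is filled in pre-graft EOM and mostly grey in pre-graft TA.

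Levels were compared between genes only after division by the length of the merged exons. On this scale of mean RPM per kb, *Foxo1* stood first in pre-graft EOM (29.5) and in pre-graft TA (30.4), followed in both by *Foxn3* (19.1 and 14.2). *Foxp1* had rank 3 in pre-graft EOM with 17.2 RPM per kb and rank 6 in pre-graft TA with 6.62. *Foxp2* had rank 6 in EOM with 9.98 and rank 10 in TA with 4.47. *Foxo4* stood at 7.61 in EOM and 11.4 in TA. After grafting *Foxo1* remained first in TA (19.1 RPM per kb), and in EOM *Foxp1* (14.4) and *Foxn2* (12.4) had higher means than *Foxo1* (11.4). That order of means in EOM grafts rests on uneven libraries, since *Foxp1* had 1059 reads in the highest library and a median of 184. By the median library, an alternative chosen after seeing the data, *Foxo1* stood first there with 13.6 RPM per kb, against 9.65 for *Foxn2* and 8.05 for *Foxp1*. The SD between libraries was larger after grafting than before it, in both muscles, for each of the 8 genes in the plot of levels by library.

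**Figure D2:**
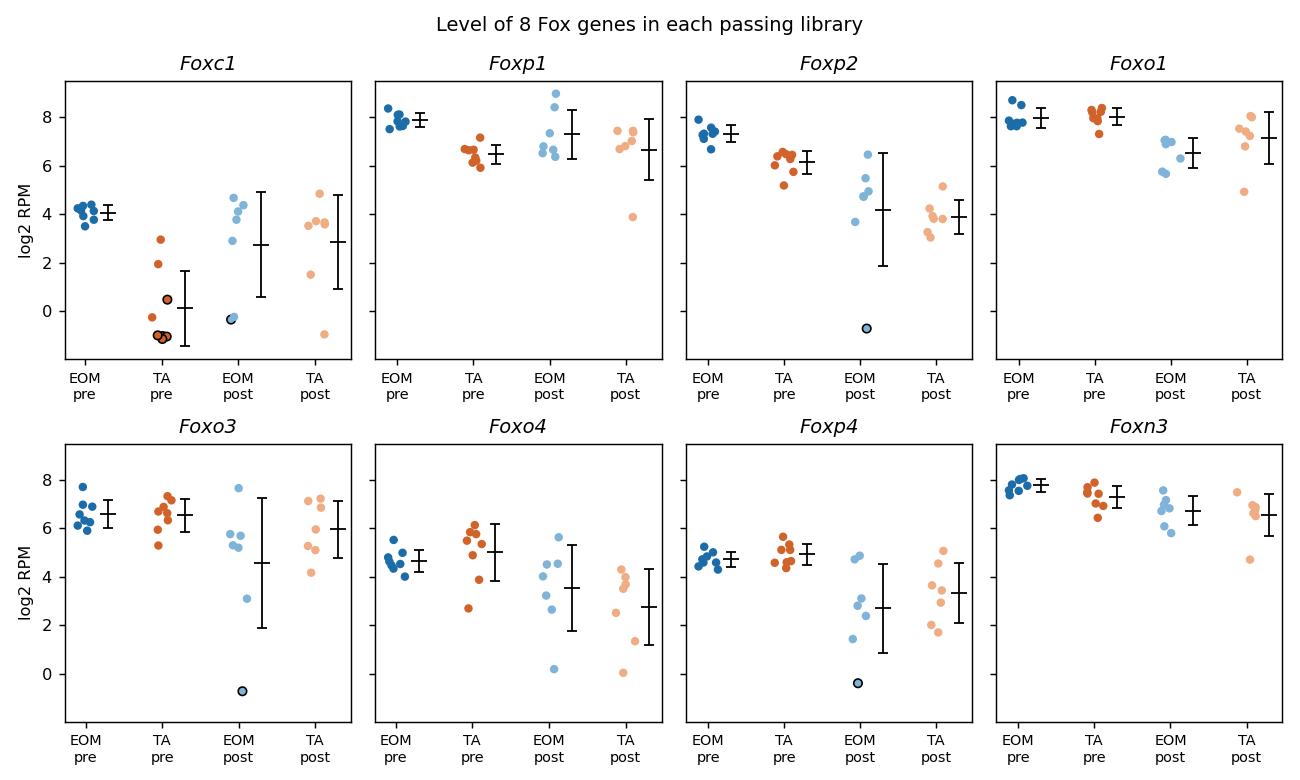
Log2 RPM of 8 *Fox* genes (panels) in each library (points), by muscle and stage, with mean ± SD beside the points (n = 8 before and n = 7 after grafting). Points with a black edge have no read. *Foxc1*, *Foxp1* and *Foxp2* of pre-graft EOM lie above all pre-graft TA libraries, and after grafting the muscles overlap in every panel.

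Before grafting, *Foxc1*, *Foxp1* and *Foxp2* were higher in EOM than in TA MuSCs, with no overlap between the 8 EOM and the 8 TA libraries. These 3 were the members called of 16 tested (lower in TA), and no member was called higher in TA. Over all genes tested, 3.31% were called lower and 1.26% higher in TA, and 2.28% did not overlap between the groups in either direction. A call, here and below, takes a limma adjusted p under 0.05 together with more than 1 unit of log2 change. The median log2 fold change of the 16 members, TA over EOM, was -0.23, near that of all genes (-0.30).

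*Foxc1* encodes a regulator of mesoderm, vessel and eye development. Its level was 3.50, 4.14 and 4.39 log2 RPM (lowest, median and highest) in pre-graft EOM, on 19 to 54 reads in each library. In pre-graft TA the levels were -1.14, -0.62 and 2.95 log2 RPM. There 5 of 8 libraries had no read, and the other 3 held 2, 5 and 19 reads. So *Foxc1* was read in every EOM library and in a minority of TA libraries, and the lowest EOM library lay above the highest TA library. The log2 fold change, TA over EOM, was -3.94 ± 0.62 (SE, adjusted p = 0.000207, limma), and it was lower in TA in 7 of 7 donors with both libraries. Because most TA libraries are at their floor, the size of this fold change depends on the floor, and it was smaller with edgeR (-3.05, adjusted p = 0.0317) and DESeq2 (-3.07, adjusted p = 0.00158). On the linear scale the mean was 16.9 RPM in EOM and 1.55 RPM in TA. *Foxc1* passed the filter on low values (log2 RPM above 1 in 4 or more libraries) through EOM, where it was high. Its difference was therefore in part fixed by the filter, and *Foxc1* was also called in the limma fit without that filter.

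*Foxp1* encodes a widely expressed repressor of the FoxP subclass. Its level was 7.5, 7.82 and 8.35 log2 RPM in pre-graft EOM and 5.91, 6.48 and 7.15 in pre-graft TA. Both muscles expressed it in all libraries, on 304 to 779 reads in EOM and 64 to 255 in TA, and EOM was higher throughout. The log2 fold change was -1.40 ± 0.18 (adjusted p = 1.49e-05, limma), a 2.64-fold difference, lower in TA in 7 of 7 donors. *Foxp1* stood at rank 68 by p among the 13217 genes tested.

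*Foxp2* encodes a close relative of *Foxp1*, known best from the brain. Its level was 6.67, 7.31 and 7.89 log2 RPM in pre-graft EOM and 5.18, 6.33 and 6.56 in pre-graft TA. The groups lay close together but did not overlap, and TA was lower in 7 of 7 donors. The log2 fold change was -1.18 ± 0.20 (adjusted p = 0.00059, limma). When each library was centred on its median, it became -0.94 (adjusted p = 0.00188), short of the limit of 1, and the members called were then *Foxc1* and *Foxp1* (2 lower and 0 higher, where 2.08% of all genes were lower and 1.77% higher).

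Within Experiment 2 alone the same 3 members were called. Other choices changed the set. With all libraries, failed ones included, *Foxp1* was called, and *Foxc1* (-3.88, adjusted p = 0.0647, limma) and *Foxp2* (-1.59, adjusted p = 0.0604) were not. In 1 fit over the 4 groups *Foxc1* was called, and *Foxp1* (adjusted p = 0.0691) and *Foxp2* (adjusted p = 0.521) were not. With edgeR and DESeq2 *Foxp2* was -0.95 and -0.94, short of the limit of 1. Beside these results, summed glial markers ran from 17 to 2650 RPM in pre-graft EOM (median 531) and from 3.10 to 399 RPM in pre-graft TA (median 18.2), with *Mbp* called lower in TA. Fibro-adipogenic markers had a median sum of 1100 RPM in both muscles, but the 5 markers tested had a median log2 fold change of -2.44, in the direction of *Foxc1*, *Foxp1* and *Foxp2*. Of these 5, 3 had an unadjusted p under 0.05 with limma and *Dcn* was called lower in TA (-5.62 with limma), but not with edgeR (-0.13) or DESeq2 (-0.11), which called none of the 5. Mural markers had medians of 671 and 641 RPM, with a median log2 fold change of -0.09 over 6 markers and none called (2 at an unadjusted p under 0.05 with limma, 0 called with edgeR and 0 with DESeq2). Endothelial markers had a median of 223 RPM in EOM and 363 RPM in TA, with a median log2 fold change of 3.15 over 8 markers. Of these 8, 6 had an unadjusted p under 0.05 with limma, and *Cdh5* was called higher and *Tek* lower in TA. With edgeR only *Tek* was called, and with DESeq2 none of the 8. Myofibre markers had a median of 28.3 RPM in EOM and 134 RPM in TA, with *Acta1* (2.89 ± 0.75, adjusted p = 0.0185, limma) and *Myh4* (2.63 ± 0.69, adjusted p = 0.0196) called higher in TA. In pre-graft TA, mouse 6 of Experiment 2 (19 *Foxc1* reads) had the highest glial (399 RPM) and mural (1520 RPM) sums. Mouse 2 of Experiment 2 (2 reads) had the highest endothelial (2240 RPM) and fibro-adipogenic (2430 RPM) sums. Mouse 4 of Experiment 1 (5 reads) held 401 RPM of endothelial and 714 RPM of mural markers. Libraries without a *Foxc1* read held up to 1230 RPM of endothelial and 733 RPM of mural markers. The part of these cells in the difference between the muscles was not tested. *Pax7* itself was higher in TA (log2 fold change 1.15 ± 0.22, adjusted p = 0.00153, limma).

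**Figure D3:**
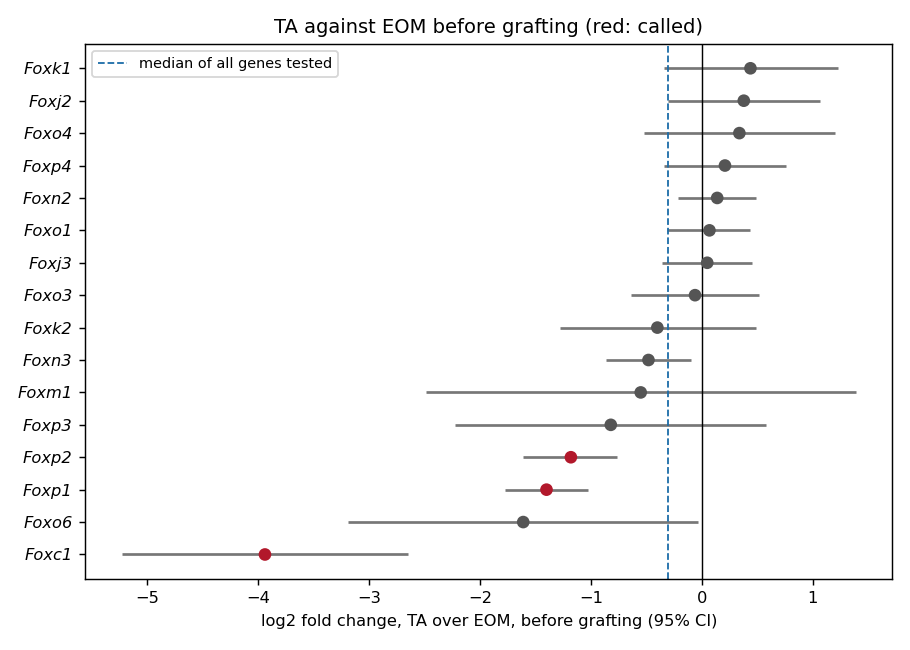
Log2 fold change of the 16 *Fox* genes tested, TA over EOM before grafting (points, with 95% confidence intervals as lines; red points are called). The dashed line is the median of all genes tested (-0.30). *Foxc1* (-3.94), *Foxp1* (-1.40) and *Foxp2* (-1.18) are the red points on the left.

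The windows upstream of the start sites of *Foxc1* and *Foxp1*, are shown because these are the members called higher in EOM before grafting that have an entry in the RefSeq promoter table (GRCm38.p6). Each run is the 250 bases before a start site, 5′ to 3′ on the strand of the gene. Capitals mark 2 motifs, which do not overlap each other. The forkhead core is TAAACA, which reads TGTTTA when it lies on the other strand. The GC box is GGGCGG, which reads CCGCCC when it lies on the other strand. *Foxc1* has 1 window (chr13:31806396-31806645, plus strand), and *Foxp1* has 3, ordered from the most upstream start site (chr6:99520994-99521243, chr6:99266516-99266765 and chr6:99028299-99028548, minus strand).
Foxc1: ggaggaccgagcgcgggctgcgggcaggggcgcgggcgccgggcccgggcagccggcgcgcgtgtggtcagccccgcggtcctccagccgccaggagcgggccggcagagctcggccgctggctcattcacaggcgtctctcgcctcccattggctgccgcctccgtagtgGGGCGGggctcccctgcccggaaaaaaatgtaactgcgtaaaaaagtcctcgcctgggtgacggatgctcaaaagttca
Foxp1, window 1: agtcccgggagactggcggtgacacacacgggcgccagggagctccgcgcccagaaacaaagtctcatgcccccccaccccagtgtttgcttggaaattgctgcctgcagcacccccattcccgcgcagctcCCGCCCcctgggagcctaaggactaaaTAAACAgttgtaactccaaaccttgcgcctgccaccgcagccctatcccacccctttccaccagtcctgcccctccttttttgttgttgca
Foxp1, window 2: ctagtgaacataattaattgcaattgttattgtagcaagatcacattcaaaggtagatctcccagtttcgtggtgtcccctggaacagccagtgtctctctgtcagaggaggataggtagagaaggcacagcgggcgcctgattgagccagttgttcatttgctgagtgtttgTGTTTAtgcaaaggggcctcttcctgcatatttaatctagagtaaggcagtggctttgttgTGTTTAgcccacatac
Foxp1, window 3: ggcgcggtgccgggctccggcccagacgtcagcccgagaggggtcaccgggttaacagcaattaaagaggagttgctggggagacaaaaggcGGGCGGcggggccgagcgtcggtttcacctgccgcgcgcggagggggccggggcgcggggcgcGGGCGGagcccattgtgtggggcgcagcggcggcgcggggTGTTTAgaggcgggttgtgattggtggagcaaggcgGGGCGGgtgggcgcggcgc

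All 3 windows of *Foxp1* hold the forkhead core, with 1, 2 and 1 matches, and that of *Foxc1* holds none. Over the family, 28 of 42 members matched the table with 33 windows, of which 5 (15.2%) hold TAAACA, against 12% of the 32851 windows of all genes. The other members with it are *Foxa1* and *Foxp3*. GGGCGG stands in 23 of the 33 windows (69.7%), against 32.7% of all windows. The member windows had a median of 16 CpG and 62.0% G and C, against 6 CpG and 52.4% over all windows. A match describes the letters and shows no binding.

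*Foxc1* lies on chromosome 13 (GRCm38, 31806646 to 31810635, plus strand) next to 2 other members, with *Foxf2* 180.8 kb and *Foxq1* a further 67.6 kb before it. The neighbours were barely read. *Foxf2* had reads in 5 of 8 pre-graft EOM libraries (at most 8 reads) and 2 of 8 TA libraries (at most 4 reads). *Foxq1* had reads in 3 EOM libraries (at most 12 reads) and 1 TA library (1 read). For *Foxq1*, 66.1% of the exon length is shared with *A530084C06Rik* on the other strand. Reads in that part cannot be told apart, since 49.6% to 50.5% of the reads of a library lay on the sense strand. *Foxc2*, the relative of *Foxc1* on chromosome 8, had 25 reads in all, in 4 of the 30 libraries. It did not pass the filter on low values in any comparison, and it was not called in the fits without that filter.

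No FoxO gene was called between the muscles before grafting. *Foxo1* stood at 7.62, 7.77 and 8.69 log2 RPM in EOM and at 7.30, 8.07 and 8.37 in TA. The ranges overlap widely, and the log2 fold change was 0.07 ± 0.18 with a 95% confidence interval from -0.31 to 0.44 (adjusted p = 0.851, limma). *Foxo3* stood at 5.90, 6.44 and 7.70 log2 RPM in EOM and at 5.29, 6.65 and 7.32 in TA, a log2 fold change of -0.06 ± 0.28 (interval -0.64 to 0.52). Both intervals lie within 1 unit of 0 on the log2 scale. *Foxo4* stood at 4.01, 4.58 and 5.52 log2 RPM in EOM and at 2.70, 5.42 and 6.13 in TA (0.34 ± 0.41, interval -0.52 to 1.20). *Foxo6*, a FoxO gene known mainly from brain and liver, was sparse, with reads in 6 of 8 EOM libraries (at most 20) and 4 of 8 TA libraries (at most 6). Its log2 fold change of -1.61 ± 0.76 was not called (adjusted p = 0.195, limma).

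*Foxp4* stood at 4.30, 4.65 and 5.24 log2 RPM in EOM and at 4.36, 4.88 and 5.65 in TA before grafting, with a log2 fold change of 0.21 ± 0.26 (interval -0.34 to 0.76). *Foxp3*, the gene that defines regulatory T cells, was listed with 18 to 41 reads in every pre-graft EOM library and up to 38 reads in 7 of 8 TA libraries. Its exons share 590 bases with *Ccdc22* and 266 bases with *Ppp1r3f*, both on the other strand and both expressed (means of 5.23 and 5.22 log2 RPM in pre-graft EOM, 3.87 and 3.80 in pre-graft TA). The shared bases are 12.9% and 5.8% of the *Foxp3* exon length, and reads within them cannot be told apart without strand. *Flicr*, annotated on the same strand as *Foxp3*, shares 853 bases (18.6%). The lymphocyte markers *Cd3g*, *Cd8a* and *Ctla4* had no read in any of the 30 libraries. Of the 8 lymphocyte markers, 4 had reads in pre-graft EOM, 4 in pre-graft TA, 5 in post-graft EOM and 4 in post-graft TA. Their summed level had medians of 6.15, 1.82, 4.07 and 0 RPM in these groups, and at most 26, 7.12, 14 and 20.5 RPM. *Cd79a*, a B cell marker, was called lower in EOM on grafting (-1.95 ± 0.79, adjusted p = 0.0391, limma) and not after centring (-0.70). *Ptprc*, carried by all white blood cells, had reads in 3 pre-graft EOM, 1 pre-graft TA, 3 post-graft EOM and 2 post-graft TA libraries.

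Of the other members tested before grafting, none was called. *Foxn3*, a repressor linked to the cell cycle checkpoint, stood at 7.36, 7.78 and 8.06 log2 RPM in EOM and at 6.43, 7.43 and 7.88 in TA (-0.48 ± 0.18, adjusted p = 0.115, limma). *Foxn2* stood at 6.27 ± 0.25 (mean ± SD) in EOM and 6.41 ± 0.28 in TA. *Foxk1* and *Foxk2*, which are known to regulate metabolism and autophagy, had log2 fold changes of 0.44 ± 0.38 and -0.40 ± 0.43. *Foxj2* and *Foxj3* had 0.38 ± 0.33 and 0.05 ± 0.20. *Foxm1*, the member that drives genes of mitosis, had reads in 6 of 8 EOM and 5 of 8 TA libraries, at most 26 reads. Of the 15 genes listed as its partners in the cell cycle, 8 could be tested and 0 were called in limma (0 at an unadjusted p under 0.05, 0 called with edgeR and 0 with DESeq2), with summed levels of 34.2 to 136 RPM in EOM and 18.1 to 72.8 RPM in TA.

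Of 21 genes upstream of FoxO proteins in the insulin and Akt pathway, 1 was called between the muscles: *Igf1r*, the IGF1 receptor, was lower in TA (log2 fold change -1.18 ± 0.26, adjusted p = 0.00646, limma), and it was not called after centring (-0.94), with edgeR (-0.90) or with DESeq2 (-0.89), short of the limit of 1 in each. *Akt1* (0.31 ± 0.28) was not called. Of 25 targets of FoxO factors tested, *Pdk4*, a kinase that limits glucose oxidation, was lower in TA (-1.04 ± 0.20, adjusted p = 0.00169, limma), and it was not called after centring (-0.80), with edgeR (-0.75) or with DESeq2 (-0.75). *Cdkn1b*, which encodes the inhibitor p27 of cyclin-dependent kinases, had 0.06 ± 0.19. After centring, *Cdkn1a*, *Bcl2l11* and *Cited2* were called higher in TA. The medians of the upstream genes and the targets were -0.12 and 0.06, and that of all genes was -0.30.

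On grafting, log2 RPM shifted downward across genes, so changes of single genes are read against that shift. The median change of all genes was -1.09 in TA and -1.48 in EOM. In TA 30.9% of 13076 genes were called lower and 3.79% higher, and in EOM 55.8% of 13094 genes were called lower and 3.51% higher. In TA 5 of 17 members were called, 4 lower and 1 higher, with a median of -0.88. In EOM 9 of 16 members were called, all of them lower, with a median of -1.36. The shares called lower are close to those of all genes, so the counts do not set the family apart. After each library was centred on its median, 2 members were higher and 1 lower in TA (all genes 7.67% and 5.68%), and 1 member was higher and 1 lower in EOM (all genes 6.65% and 4.84%).

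**Figure D4:**
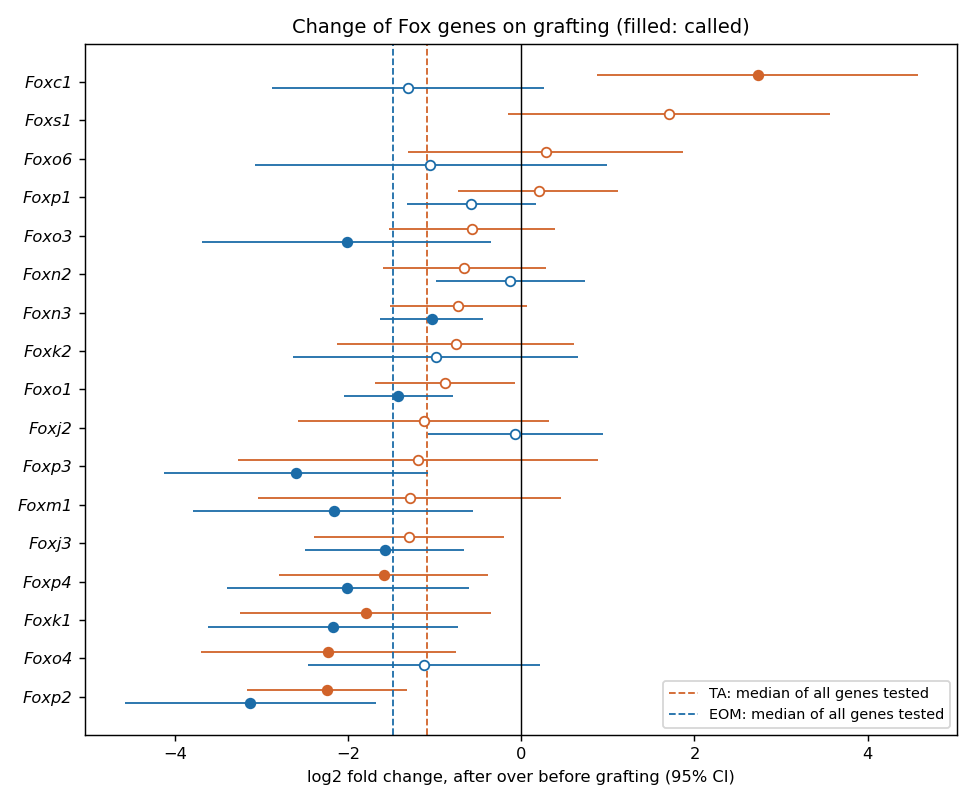
Log2 fold change on grafting, after over before, of the *Fox* genes tested in TA (orange) and in EOM (blue), with 95% confidence intervals; filled points are called. Dashed lines are the medians of all genes tested (-1.09 in TA and -1.48 in EOM). *Foxp2* lies left of both lines, and *Foxc1* of TA (2.73) lies far to the right.

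*Foxp2* fell in both muscles, also relative to the general shift. In TA it went from 5.18, 6.33 and 6.56 log2 RPM to 3.04, 3.81 and 5.14, and in EOM from 6.67, 7.31 and 7.89 to -0.71, 4.73 and 6.45. No post-graft library reached the lowest pre-graft library of its own muscle, which held for 5.19% of all genes in TA and 11.3% in EOM, in either direction. The log2 fold change was -2.25 ± 0.45 in TA (adjusted p = 0.00154, limma) and -3.13 ± 0.70 in EOM (adjusted p = 0.00174). After centring it was still lower, at -1.35 in TA (adjusted p = 0.0212) and -1.88 in EOM (adjusted p = 0.0494). It was lower after grafting in 7 of 7 TA donors and 6 of 6 EOM donors. The lowest EOM graft (mouse 3 of Experiment 2) had no read, and without it the EOM change was -2.31 (adjusted p = 0.00033, limma). With the donor mouse as replicate block it was -2.27 (adjusted p = 0.00897). With edgeR the EOM change was -1.39 and was not called (adjusted p = 0.065), and with DESeq2 it was -1.32 and was called (adjusted p = 0.0243).

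*Foxc1* went the other way in TA. From 5 of 8 pre-graft TA libraries without a read, it came to be read in all 7 post-graft TA libraries, with 1, 5, 16, 18, 19, 25 and 60 reads, or -0.95, 3.58 and 4.84 log2 RPM (lowest, median and highest). Pre-graft and post-graft TA overlap, since 1 graft held a single read and 1 pre-graft library held 19 reads. The log2 fold change was 2.73 ± 0.90 (adjusted p = 0.0245, limma), and 3.62 after centring (adjusted p = 0.0143), higher in 6 of 7 donors. Within Experiment 2 alone it was 2.50 and was not called (adjusted p = 0.0811), and without pre-graft TA of mouse 5 of Experiment 2 it was 2.57 (adjusted p = 0.05). *Foxc1* passed the filter on low values through the TA grafts, where it was high, so its rise was in part fixed by the filter. Without that filter it was not called (adjusted p = 0.0788, limma). In EOM the post-graft levels were -0.34, 3.77 and 4.67 log2 RPM against 3.50, 4.14 and 4.39 before, and the change of -1.31 ± 0.76 was not called (adjusted p = 0.131). Its direction depends on the scaling, at -0.06 after centring, 0.69 with edgeR and 0.82 with DESeq2, none of them called. After grafting, the muscles no longer differed detectably: TA over EOM was 0.09 ± 1.10, with an interval from -2.15 to 2.33.

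Markers of vessel and connective tissue cells moved with *Foxc1* in TA: 7 of 8 endothelial, 4 of 6 fibro-adipogenic and 3 of 6 mural markers rose there on grafting, and 1 fibro-adipogenic marker (*Col3a1*) fell. With edgeR and DESeq2 1 of the 6 fibro-adipogenic markers (*Ly6a*, higher) was called in each, while 7 and 8 endothelial and 4 and 4 mural markers were called. *Pecam1*, the endothelial adhesion molecule, rose by 3.10 ± 0.85 in TA and by 5.70 ± 1.25 in EOM on the log2 scale (adjusted p = 0.00975 and 0.00159, limma). The TA graft with the most *Foxc1* reads (60, mouse 3 of Experiment 1) held 5980 RPM of endothelial and 5420 RPM of mural markers, and the one with 1 read (mouse 2 of Experiment 2) held 4080 and 2580 RPM. Those with 16 and 18 reads (mice 3 and 5 of Experiment 2) held 1210 and 1370 RPM of endothelial and 1300 and 1990 RPM of mural markers. Those with 5, 19 and 25 reads held 2230, 4910 and 6470 RPM of endothelial and 341, 3190 and 5470 RPM of mural markers. The TA grafts with 19, 25 and 60 *Foxc1* reads thus had the highest endothelial and mural sums. The TA graft with 1 read had the next highest sum of each. Among the EOM grafts, the one with the most *Foxc1* reads (54, mouse 4 of Experiment 1) had the lowest endothelial sum (182 RPM), 384 RPM of mural markers and the highest MuSC marker sum (14100 RPM). The EOM graft without a *Foxc1* read (mouse 1 of Experiment 2) held 5290 RPM of endothelial and 11000 RPM of fibro-adipogenic markers. The other EOM grafts, with 1, 11, 27, 33 and 36 *Foxc1* reads, came from mice 5, 3, 2, 6 and 4 of Experiment 2. In that order they held 961, 3630, 833, 2880 and 3490 RPM of endothelial markers. Their mural sums were 619, 2020, 362, 5040 and 2750 RPM. Myofibre markers also rose, 2 of 6 in TA (median sum from 134 to 258 RPM) and 5 of 6 in EOM (from 28.3 to 345 RPM). Summed glial markers went from a median of 531 to 49.1 RPM in EOM on grafting, with *Mbp* called lower there (-3.58 ± 1.17, adjusted p = 0.014, limma) and not after centring (-2.33). The part of these cells in the changes of *Fox* genes was not tested.

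**Figure D5:**
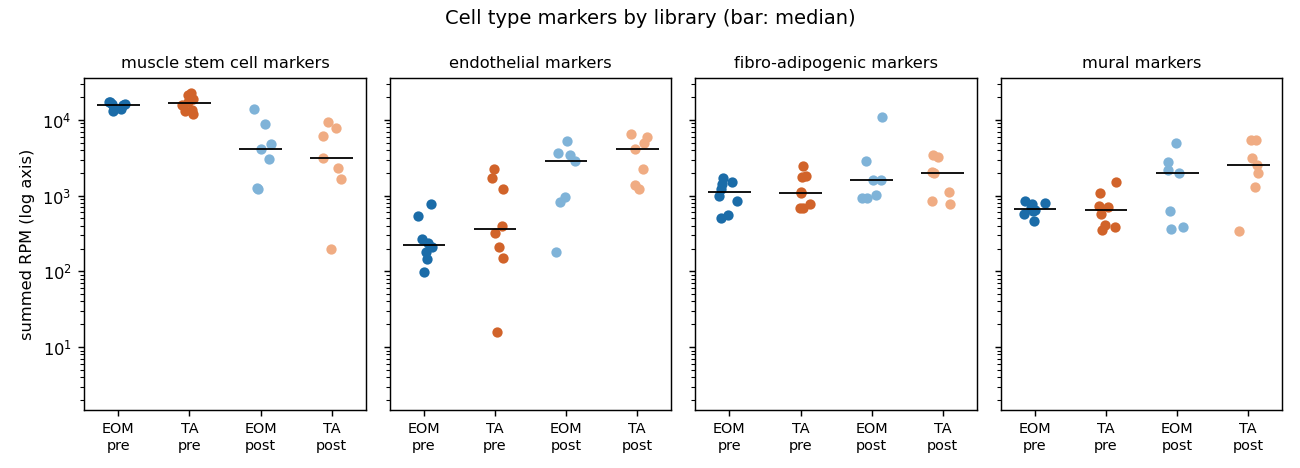
Summed RPM (log axis) of MuSC, endothelial, fibro-adipogenic and mural markers in each library (points) by muscle and stage, with the median as a bar. MuSC markers are lower and endothelial markers higher after grafting in both muscles, with medians of 2880 RPM in EOM and 4080 RPM in TA for the endothelial markers.

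*Foxs1*, a forkhead gene known from pericytes and other perivascular cells, had reads in 2 of 8 pre-graft EOM, 3 of 8 pre-graft TA, 4 of 7 post-graft EOM and 5 of 7 post-graft TA libraries. The highest library held 7, 21, 4 and 42 reads in these groups. Its change in TA was 1.70 ± 0.90 and was not called (adjusted p = 0.131, limma). It could not be tested in EOM, where too few libraries passed the filter.

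*Foxp1* was not called on grafting in either muscle on the log2 RPM scale. In TA it went from 5.91, 6.48 and 7.15 to 3.88, 7.01 and 7.43 log2 RPM, a log2 fold change of 0.20 ± 0.45 against a median of all genes of -1.09. After centring it was called higher in TA, at 1.09 (adjusted p = 0.011, limma), as it was with edgeR (1.09, adjusted p = 0.015) and DESeq2 (1.19, adjusted p = 0.000321). In RPM without mitochondrial genes it was not called in TA. In EOM it went from 7.5, 7.82 and 8.35 to 6.36, 6.79 and 8.96 log2 RPM, a log2 fold change of -0.58 ± 0.36 that became 0.67 after centring and was not called either way (adjusted p = 0.159 and 0.0907). Pre-graft and post-graft ranges overlap in both muscles. The 8 libraries of pre-graft EOM lay above pre-graft TA, but the grafts overlap, and TA over EOM among grafts was -0.63 ± 0.56 (interval -1.76 to 0.51).

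*Foxo1* fell in EOM, from 7.62, 7.77 and 8.69 to 5.66, 6.88 and 7.06 log2 RPM, without overlap. The log2 fold change was -1.42 ± 0.30 (adjusted p = 0.00129, limma), close to the median of all genes, and after centring it was -0.17 (adjusted p = 0.659). In TA *Foxo1* went to 4.92, 7.40 and 8.04 log2 RPM, a change of -0.88 ± 0.39 that was not called (adjusted p = 0.0777), but was called without the graft of mouse 2 of Experiment 2 (-1.04, adjusted p = 0.0436). *Foxo3* fell in EOM to -0.71, 5.30 and 7.65 log2 RPM (-2.02 ± 0.81, adjusted p = 0.0357), with 1 library without a read (mouse 3 of Experiment 2), without which it was -1.14 (adjusted p = 0.0614), and leaving out the EOM graft of mouse 2 of Experiment 2 or pre-graft EOM of mouse 2 of Experiment 2 or mouse 4 or 5 of Experiment 1 also ended the call (adjusted p = 0.0676, 0.0512, 0.0627 and 0.0538). After centring *Foxo3* in EOM was -0.77 (adjusted p = 0.519, limma), with edgeR -0.03 (adjusted p = 0.981) and with DESeq2 0.05 (adjusted p = 0.972), so the direction was not kept. The call was also lost without a filter on low values (adjusted p = 0.0531), with experiment as a covariate (adjusted p = 0.0834) and without mitochondrial genes (adjusted p = 0.255). In TA *Foxo3* went to 4.17, 5.95 and 7.22 log2 RPM (-0.57 ± 0.47, adjusted p = 0.322). *Foxo4* fell in TA from 2.70, 5.42 and 6.13 to 0.05, 3.51 and 4.30 log2 RPM (-2.23 ± 0.72, adjusted p = 0.0212), and after centring it was -1.34 and was not called (adjusted p = 0.216). The call was also lost within Experiment 2 alone (-2.06, adjusted p = 0.0924, limma), without mitochondrial genes (-1.64, adjusted p = 0.1), with edgeR (-1.12, adjusted p = 0.265) and with DESeq2 (-0.99, adjusted p = 0.27). In EOM *Foxo4* went to 0.20, 4.02 and 5.63 log2 RPM (-1.12 ± 0.64, adjusted p = 0.127), and without the graft of mouse 4 of Experiment 1 it was called (-1.47, adjusted p = 0.0406). *Foxo6* had reads in 2 of 7 EOM grafts, at most 42, and 3 of 7 TA grafts, at most 25.

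*Foxp4* fell in both muscles on the log2 RPM scale. In TA it went to 1.71, 3.44 and 5.07 log2 RPM (-1.59 ± 0.59, adjusted p = 0.0395, limma), a call that 8 of 15 libraries could end when left out alone (adjusted p from 0.0529 to 0.0715: TA grafts of mouse 3 of Experiment 1 and mice 3 and 6 of Experiment 2, and pre-graft TA of mice 3 and 4 of Experiment 1 and mice 4, 5 and 6 of Experiment 2). In EOM it went to -0.38, 2.81 and 4.87 log2 RPM (-2.01 ± 0.67, adjusted p = 0.0159). It was not called after centring (-0.69 and -0.76), with edgeR (-0.54 and -0.39) or with DESeq2 (-0.44 and -0.27) in TA and EOM, or in RPM without mitochondrial genes. In TA the call was also lost without a filter on low values (adjusted p = 0.0761, limma) and within Experiment 2 alone (adjusted p = 0.138). *Foxk1* also fell in TA (-1.80 ± 0.70, adjusted p = 0.0484) and in EOM (-2.18 ± 0.70, adjusted p = 0.0126), with -0.90 and -0.93 after centring, not called. The call of *Foxk1* in TA was lost when any 1 of 10 of the 15 libraries was left out (TA grafts of mouse 3 of Experiment 1 and mice 2, 3 and 4 of Experiment 2, and pre-graft TA of mice 3 and 4 of Experiment 1 and mice 1, 4, 5 and 6 of Experiment 2). It was also lost without a filter on low values, with experiment as a covariate, within Experiment 2 alone, without mitochondrial genes, with edgeR (-0.69, adjusted p = 0.475) and with DESeq2 (-0.56, adjusted p = 0.522). *Foxj3*, *Foxn3*, *Foxm1* and *Foxp3* fell in EOM, with log2 fold changes of -1.58, -1.03, -2.17 and -2.60, and none of these was called after centring, with edgeR or with DESeq2. *Foxm1* passed the filter on low values through pre-graft EOM, where it was high, so its fall was in part fixed by the filter, and it was not called without the filter or within Experiment 2 alone. Of the 9 members called lower in EOM, *Foxp2* was the one still called in RPM without mitochondrial genes. *Foxn3* in EOM was 0.22 after centring, 0.12 with edgeR and 0.23 with DESeq2, so its direction was not kept. The call of *Foxn3* was also lost within Experiment 2 alone and with experiment as a covariate. It was also lost without the EOM graft of mouse 4 or 5 of Experiment 2 or pre-graft EOM of mouse 4 or 5 of Experiment 1. Beside the fall of *Foxp3*, the genes that share part of its exons went from means of 5.23 to 2.79 (*Ccdc22*) and from 5.22 to 2.86 log2 RPM (*Ppp1r3f*) in EOM. Reads within the shared bases, 12.9% and 5.8% of the *Foxp3* exon length, cannot be told apart. *Foxm1* had reads in 1 of 7 EOM and 2 of 7 TA grafts, at most 7 reads. *Foxn2* stood at 6.27 ± 0.25 (mean ± SD) before and 6.14 ± 1.16 after grafting in EOM and was the member called higher there after centring (1.12, adjusted p = 0.0232). *Foxj2* in EOM was 1.18 after centring (adjusted p = 0.0928), and DESeq2 called it higher.

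With the donor mouse as replicate block, which pairs libraries of the same animal, 4 members instead of 9 were called lower in EOM grafts: *Foxk1*, *Foxo1*, *Foxp2* and *Foxp3*. *Foxo3* was -1.13 (adjusted p = 0.103) and *Foxp4* -1.71 (adjusted p = 0.094) in that fit, and *Foxj3*, *Foxn3* and *Foxm1* were not called either (adjusted p = 0.0607, 0.0588 and 0.108). *Foxp4* in TA was -1.56 (adjusted p = 0.0839).

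Genes around FoxO proteins had medians near that of all genes on grafting. Of 21 upstream genes, 8 fell in TA, with a median of -0.86, and 12 fell in EOM, with a median of -1.11, where 30.9% and 55.8% of all genes were called lower. *Irs1*, an adaptor of the insulin receptor, fell in TA (-2.61 ± 0.50, adjusted p = 0.00116, limma). After centring, *Insr* was higher and *Irs1* lower in TA. *Akt1* was not called in either muscle (-0.86 ± 0.38 and -0.89 ± 0.56). Of the targets, 11 of 26 tested fell and 1 rose in TA, and 17 of 25 tested fell and 1 rose in EOM, with medians of -1.09 and -1.17, against the same shares of all genes. Fewer were called in either direction with the count models: 3 upstream genes in TA and 1 in EOM with each of edgeR and DESeq2, and 6 targets in TA and 6 in EOM with edgeR against 7 and 5 with DESeq2.

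Among targets, *Pdk4* fell in both muscles, with -4.54 ± 0.96 in TA and -2.98 ± 0.47 in EOM (adjusted p = 0.00223 and 0.000198, limma; -3.65 and -1.73 after centring). *Ccng2*, which encodes a cyclin linked to arrest, fell in both (-2.38 ± 0.40 and -2.03 ± 0.45) and stayed called in TA after centring (-1.48). *Cdkn1b* fell in EOM (-1.11 ± 0.40, adjusted p = 0.0221) and was 0.14 after centring. *Cdkn1a* and *Notch1* were called higher in both muscles after centring, at 1.18 and 1.16 in TA and at 2.06 and 1.26 in EOM. *Bcl2l11*, a promoter of apoptosis, rose in EOM (1.27 ± 0.43, adjusted p = 0.0172), and *Trim63*, a ubiquitin ligase of muscle atrophy, rose in TA (2.02 ± 0.77, adjusted p = 0.0443) from 1 library with reads of 8 to 4 of 7. No pre-graft TA library exceeded 0.48 log2 RPM of *Trim63*. It passed the filter on low values through the TA grafts, so its rise was in part fixed by the filter. The partners of *Foxm1* had 0 of 10 tested called in TA (1 at an unadjusted p under 0.05, 0 called with edgeR and 0 with DESeq2) and 0 of 7 in EOM (0 at an unadjusted p under 0.05, 0 called with edgeR and 0 with DESeq2), with limma.

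Between the grafts, 0 of 16 members tested were called with limma, as were 0% of all 12377 genes. None of the 16 had an unadjusted p under 0.05 with limma, and 1 with edgeR and 3 with DESeq2 did, with none called by either. The groups of grafts did not overlap for 0.0162% of all genes and for no member. Intervals were wide, as for *Foxc1* (0.09 ± 1.10, interval -2.15 to 2.33) and *Foxo3* (1.39 ± 0.84, interval -0.32 to 3.09), so differences of several fold were not detectable among these grafts. The difference between the muscles in their change on grafting (EOM minus TA) was called for 0 of 17 members and 0.208% of 14428 genes. *Foxc1* had the largest value of the members (-4.03 ± 1.21, adjusted p = 0.266, limma) and was the one with an unadjusted p under 0.05. With edgeR 1 member and with DESeq2 3 members had an unadjusted p under 0.05 in this contrast, and neither called any. Both comparisons share their libraries with those above, so they are no separate evidence.

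The remaining members had few reads. *Foxd3*, a factor of neural crest cells, had reads in 4 of 30 libraries, at most 19. *Foxl2*, known from ovary and eyelid, had 14 reads in 1 pre-graft EOM library. *Foxj1*, the regulator of motile cilia, had reads in 7 libraries, at most 14. *Foxa1*, *Foxa3*, *Foxd1*, *Foxd2*, *Foxd4*, *Foxh1*, *Foxi1*, *Foxi2*, *Foxn1*, *Foxn4*, *Foxr1* and *Foxr2* had reads in 1 or 2 libraries each, at most 16 reads.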

How the data were processed

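RNA was measured in 40 libraries of sorted MuSCs (G&T-seq). According to the methods and the submitters' processing notes, the authors trimmed reads with Trim Galore 0.4.4, aligned them to GRCm38 with HISAT2 2.1.0 and made log2 RPM in Seqmonk, scaled to a total that is not given in the sources used here. The deposited table holds these log2 RPM values, 1 column per library, and the deposited library tables hold the total read counts and the percent of reads in genes, exons, mitochondrial genes and on the sense strand. The annotation release and the counting rule are not given in the sources used here. The lowest value of each library marks genes with no read and equals 0.9 of 1 read, and reads were recovered from that step: 99.9969% of the values lay within 0.1 of a whole read. Where a symbol had several rows, the one with more reads was kept. Bisulfite libraries were not analysed here.

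Log2 RPM were compared with limma 3.58.1 (R 4.3.3; trend, moderated variances) where a gene exceeded a log2 RPM of 1 in 4 or more libraries of the comparison, with p-values adjusted by Benjamini-Hochberg over all genes tested. A gene was called at an adjusted p under 0.05 if its log2 fold change exceeded 1 in size. The 5 comparisons left out the 10 libraries that failed the study's quality table. A count model came second because the deposited values are not counts: edgeR 4.0.16 and DESeq2 1.42.0 were run on recovered reads, and the code was tested on simulated data. Libraries of 1 donor come from the same animal, so the donor was tried as replicate block. Deviations from group means correlated weakly between libraries of 1 donor (median r of 0.07, 0.01, -0.04 and 0.04 in the comparisons before grafting, in TA, in EOM and between grafts). Exon lengths come from GENCODE vM21 and promoter windows from RefSeq, both GRCm38. Named are the FoxO, FoxC and FoxP genes, members called or without overlap, a fixed set of further members with reads, and the genes called in the lists; a few genes that meet this rule are not reported here. Members and lists were chosen with earlier results of these data known. Other alternatives were log2 of RPM plus 1, other filters, RPM without mitochondrial genes, libraries of Experiment 2 alone, experiment as a covariate, a joint fit over 4 groups, centring on library medians, all libraries, and leaving out each library.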

Additional observations from a re-analysis of the deposited data

Results flagged for a closer look

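In 35 groups of 7 or 8 libraries of the FoxO, FoxC and FoxP genes, 3 had a library far from the others by Dixon's test, which flags about 1 group in 20 by chance. All 3 are grafts of mouse 3 of Experiment 2. *Foxo1* stood at 4.92 log2 RPM (37 reads) in its TA graft, where the next library stood at 6.79. *Foxp1* stood at 3.88 (18 reads) in the same library, where the next stood at 6.68. *Foxp2* stood at -0.71 (0 reads) in its EOM graft, where the next stood at 3.68. That TA graft had the lowest MuSC marker sum of the TA grafts (197 RPM) and 46.8% mitochondrial reads, and that EOM graft had 59.6% mitochondrial reads. Both were made from 16 cells. The part of these in the values was not tested.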

How the results depend on the processing

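The count of 3 members called before grafting stayed within 1.5 times under all but 2 alternatives and was 3 with each of 16 libraries left out: all libraries together gave 1 (*Foxp1*), and 1 fit over 4 groups gave 1 (*Foxc1*). The count of 5 in TA on grafting was 2 without a filter, 1 in Experiment 2 alone, 2 without mitochondrial genes, and 3 after centring, with edgeR and with DESeq2. It ran from 2 to 6 with 1 library left out: leaving out post-graft TA of mouse 3 of Experiment 2 or pre-graft TA of mouse 3 or 4 of Experiment 1 or mouse 4 or 6 of Experiment 2 gave 3 each, and leaving out pre-graft TA of mouse 5 of Experiment 2 gave 2. The count of 9 in EOM on grafting was 4 with the replicate block, 1 without mitochondrial genes, 2 after centring, 1 with edgeR and 3 with DESeq2, and 7 to 10 with 1 library left out. The counts of 0 between grafts and for the difference of changes stayed at 0 to 0 throughout. With the replicate block, no other count moved by over 1.5 times. The cause of these shifts was not tested.

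Of 1178 log2 fold changes of 8 genes under alternatives (*Foxc2* could not be tested), 1070 kept their direction and side of the threshold, and 52 changed sign, 1 of them called as reported (*Foxo3* in EOM, with DESeq2) and 0 called under the alternative. In Experiment 2 alone the sign differed for TA against EOM before grafting *Foxo1* -0.08, *Foxo3* 0.04 and for TA against EOM grafts *Foxp2* 0.18. With all libraries the sign differed for TA against EOM before grafting *Foxo1* -0.23, *Foxo4* -0.05, *Foxp4* -0.40, for TA on grafting *Foxo6* -0.28, for TA against EOM grafts *Foxo6* 0.15, *Foxc1* -0.25, *Foxp4* -0.40 and for the change of EOM minus that of TA *Foxp4* 0.01. With experiment as covariate the sign differed for TA against EOM before grafting *Foxo3* 0.01. Without mitochondrial genes the sign differed for TA against EOM before grafting *Foxo3* 0.10, for TA on grafting *Foxo3* 0.02, for EOM on grafting *Foxp1* 0.30 and for TA against EOM grafts *Foxc1* -0.03. After centring each library the sign differed for TA against EOM before grafting *Foxo3* 0.18, for TA on grafting *Foxo1* 0.01, *Foxo3* 0.32, for EOM on grafting *Foxo4* 0.13, *Foxo6* 0.20, *Foxp1* 0.67 and for TA against EOM grafts *Foxc1* -0.02. With edgeR the sign differed for TA against EOM before grafting *Foxo3* 0.12, for TA on grafting *Foxo3* 0.40, for EOM on grafting *Foxo4* 0.30, *Foxo6* 0.76, *Foxc1* 0.69, *Foxp1* 0.62 and for the change of EOM minus that of TA *Foxp4* 0.13. With DESeq2 the sign differed for TA against EOM before grafting *Foxo3* 0.13, for TA on grafting *Foxo1* 0.10, *Foxo3* 0.51, for EOM on grafting *Foxo3* 0.05, *Foxo4* 0.38, *Foxo6* 0.82, *Foxc1* 0.82, *Foxp1* 0.71 and for the change of EOM minus that of TA *Foxp4* 0.18. With the replicate block the sign differed for TA against EOM grafts *Foxp2* 0.18. With 1 library left out the sign differed at some point for *Foxo3* before grafting (-0.17 to 0.12), *Foxc1* between grafts (-0.43 to 0.72), *Foxp2* between grafts (-1.11 to 0.08) and *Foxp4* for the difference of changes (-0.78 to 0.10). Depth limits the sparse members, where 1 read decides whether a library stands at its floor.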

Other observations

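In the 10 libraries left out of the comparisons, *Foxo1*, *Foxo3*, *Foxp1*, *Foxp2*, *Foxn2* and *Foxn3* had reads in 9 of 10, and *Foxc1* in 6 of 10, at most 59 reads. *Foxs1* had reads in 6 of 10, at most 38. *Foxi3*, without a read in the 30 libraries compared, had 4 reads in 1 of them.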
